A study of Mus musculus with 12 samples.

Results

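Ccn1 and 8 genes of the pathway that controls it, Ccn2, Yap1, Wwtr1, Tead1, Lats2, Ankrd1, Amotl2 and Ajuba, were measured by RNA sequencing in sorted mouse kidney cells. They are 9 of the 23378 genes in the deposited count table, found by symbol, and all 9 were among the 14180 genes left by a filter on low counts. Ccn1 was chosen by its counts in these same libraries, so its values are given as a description with no test. The other 8 genes were tested with edgeR's quasi-likelihood test across all 14180 genes, and a gene is said to have passed when its adjusted p lay under 0.05.

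All mice were C57BL/6 animals that carried the CreERT2 recombinase under the nNOS gene (Nos1) and the mTmG reporter, which exchanges membrane tdTomato for membrane GFP wherever the recombinase acts. Green cells of digested kidney cortex were taken as macula densa cells, and those with the brightest tdTomato as control cells, which the labels assign to the epithelium of distal tubule and collecting duct. The mice had 14 days of control diet, or of a diet low in salt while drinking water held 150 mg of enalapril per litre, which inhibits angiotensin-converting enzyme; this pair of treatments is called LS+ACEi here. There were 2 macula densa libraries and 4 control-cell libraries on each diet, 12 in all. The labels do not say which libraries came from separate animals, so the p-values measure only the spread between these libraries, which may be technical. A description number is shared by 8 libraries in 4 pairs, each a macula densa and a control-cell library on the same diet. The labels do not say what this number stands for. The main tests leave it out, and a fit blocked by it is given at the end.

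Total counts per library ran from 4259034 to 14856540, of which nuclear protein-coding genes held 781241 to 2331458. The gene Gm42418 alone held 53.5% to 58.9% of the macula densa libraries and 58.9% to 65.0% of the control-cell libraries. It is part of the library totals used for scaling. Levels are given as CPM, the counts in each 1e+06 of the scaled library total, and 3 counts, the smallest number treated as detected, equalled 0.231 to 0.734 CPM. Nos1 measured 100 to 232 CPM in the macula densa libraries and 0.109 to 0.734 CPM in the control cells. Ren1, which encodes renin, measured 1.88 to 6.19 CPM in control cells on control diet and 42.7 to 135 CPM on LS+ACEi. The control cells also held podocyte and endothelial transcripts, which their label does not mention. Their summed level over 7 podocyte markers ran from 43.7 to 1352 CPM, and over 7 endothelium markers from 42.5 to 1461 CPM. Control-cell replicate 4 on control diet stood apart with the lowest value of both sums.

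YAP (Yap1) and TAZ (Wwtr1) are transcriptional coactivators that cannot bind DNA themselves and reach their genes through TEAD factors such as TEAD1. The Hippo kinases LATS1 and LATS2 phosphorylate both and keep them out of the nucleus, while cell spreading, actin tension and loss of cell contacts favour their entry. Ccn1 and Ccn2 are their classical target genes and encode secreted matricellular proteins that bind integrins, Ankrd1 encodes a nuclear ankyrin repeat protein used as a readout of the pathway, and Amotl2 and Lats2 are targets whose products act back on YAP. Ajuba encodes a LIM protein of cell junctions that binds LATS kinases. The macula densa is the plaque of tubule cells that senses salt delivery and signals to the renin cells and arterioles of the glomerulus.

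TEAD factors bind the element CATTCC, which reads GGAATG on the other strand, and it was searched on both strands in RefSeq promoters of the assembly GRCm38.p6, each with 250 bases before and 50 after the start. Promoters were present for 7 of the 9 genes, all except Ccn2 and Tead1. Each of the 7 held the element in at least 1 of its promoters, against 16.6% of 27025 genes with a promoter. Among the other YAP and TAZ target genes listed for this study it was present in 2 of 10. The CArG box of serum response factor was in none of the 7 (0 of 7) and in 1.81% of all genes, and its absence says only that these letters are not in the window. A match is a string of letters and no evidence of binding.

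The 9 matches are shown because they are what these promoters share. Each line gives 30 bases, read on the strand that shows CATTCC, 5′ to 3′, with the element in capitals.
Ccn1 (chr3:145650071-145650100, minus strand): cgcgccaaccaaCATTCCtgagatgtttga
Yap1 (chr9:8004720-8004749, plus strand): tgcgcgtcgctaCATTCCtgcagactcccg
Wwtr1 (chr3:57576029-57576058, plus strand): agcgcctatctgCATTCCtttgagtttacc
Lats2 (chr14:57746102-57746131, plus strand): ctacattgttggCATTCCacgggcgtcacg
Ankrd1 (chr19:36120037-36120066, plus strand): atgtgagagggtCATTCCtttggcagtgac
Ankrd1 (chr19:36119950-36119979, plus strand): caggtgaattttCATTCCagacttagtgtc
Amotl2 (chr9:102717727-102717756, plus strand): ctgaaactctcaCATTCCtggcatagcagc
Ajuba (chr14:54577830-54577859, minus strand): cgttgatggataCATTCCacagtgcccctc
Ajuba (chr14:54577808-54577837, minus strand): tgcccctccgcgCATTCCaactgtaaacaa

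Counted from the start, the first base of the element lay at -103 in Ccn1, -141 in Yap1, -136 in Wwtr1, -210 and -123 in Ankrd1, -65 in Amotl2, -186 and -164 in Ajuba, and 5 bases after the start in Lats2. On the gene's own strand it read CATTCC in Ccn1, Amotl2 and Ajuba and GGAATG in the others. The windows of Ccn1, Yap1, Wwtr1 and Ajuba overlapped none of their gene's GENCODE M21 exons (0 exons), while those of Lats2, Amotl2 and Ankrd1 overlapped 3, 2 and 1 annotated exons.

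The 250 bases upstream of Ccn1, whose diet difference in macula densa cells was the largest positive one of the 9 genes, are given for context (chr3:145649986-145650235, minus strand, element in capitals).
Ccn1 upstream: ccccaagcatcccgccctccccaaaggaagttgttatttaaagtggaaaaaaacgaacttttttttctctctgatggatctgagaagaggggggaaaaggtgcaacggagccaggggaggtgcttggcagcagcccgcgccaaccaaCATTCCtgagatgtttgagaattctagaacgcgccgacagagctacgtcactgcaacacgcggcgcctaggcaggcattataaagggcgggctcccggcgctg

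Ccn1, on chromosome 3 from 145646976 to 145649981 on the minus strand, was lowest in macula densa cells on control diet, at 1.64 and 0.570 CPM. On LS+ACEi the macula densa libraries measured 3.45 and 6.23 CPM. Control cells on control diet measured 9.08, 6.20, 7.81 and 7.85 CPM. The order of the groups ended with control cells on LS+ACEi, at 25.3, 11.8, 13.02 and 16.7 CPM. Neighbouring groups in this order did not overlap, except that macula densa replicate 2 on LS+ACEi lay just above the lowest control-cell library on control diet. In that order the group means were 1.11 ± 0.757 (SD, n = 2), 4.84 ± 1.97 (SD, n = 2), 7.73 ± 1.18 (SD, n = 4) and 16.7 ± 6.10 CPM (SD, n = 4). The macula densa values rest on 7 to 38 counts per library.

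**Figure D1:**
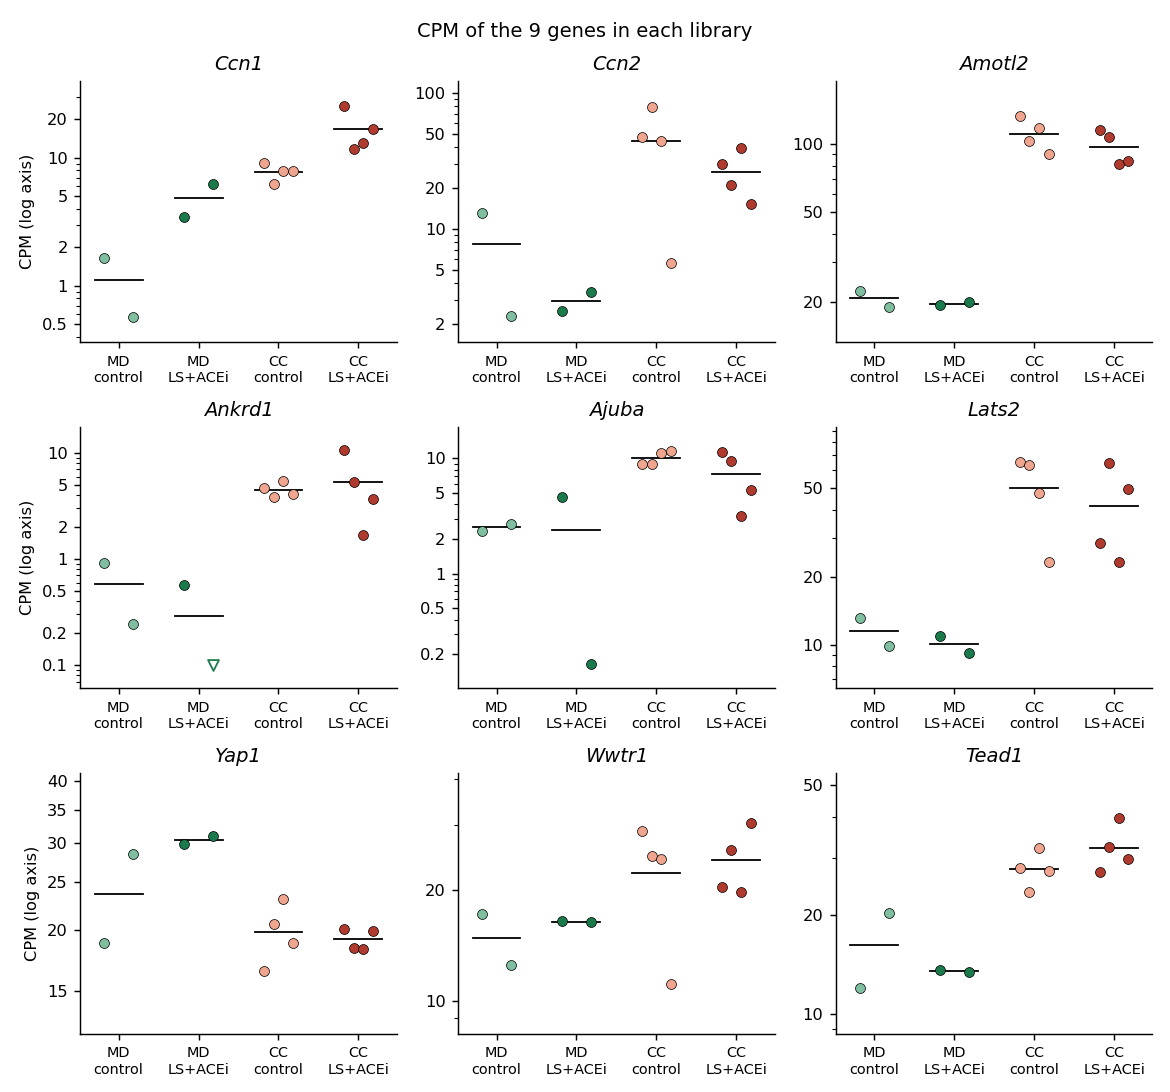
CPM of the 9 genes in each of the 12 libraries (log axes that differ between panels), for macula densa cells (MD) and control cells (CC) on control diet and on LS+ACEi. Points are libraries, bars are group means, and the open triangle marks the Ankrd1 library with 0 counts. Amotl2 lies between 19.1 and 22.5 CPM in the macula densa libraries and between 81.5 and 133 CPM in the control cells.

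The log2 difference of Ccn1 between macula densa and control cells was -2.82 on control diet and -1.79 on LS+ACEi, lower in macula densa cells on both. LS+ACEi went with a log2 difference of 2.16 in macula densa cells and of 1.12 in control cells. The libraries of the 2 diets did not overlap in either population, which held for 18.8% of all genes in macula densa cells and for 2.1% in control cells, higher on LS+ACEi. Leaving out either macula densa library of the control diet moved the former to 1.47 (replicate 2 omitted) or 3.01 (replicate 1 omitted). The 2 diet differences were 1.04 apart, a gap that ran from 0.33 to 1.87 as single libraries were omitted and was not tested.

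Ccn2, on chromosome 10 from 24595442 to 24598683, spread more widely than Ccn1. Macula densa libraries measured 13.1 and 2.28 CPM on control diet and 2.49 and 3.44 CPM on LS+ACEi. Control cells measured 47.6, 79.2, 44.4 and 5.58 CPM on control diet and 30.3, 21.1, 39.3 and 15.2 CPM on LS+ACEi. The populations overlapped on control diet, where control-cell replicate 4 lay below macula densa replicate 1, and did not overlap on LS+ACEi. Averaged over both diets Ccn2 was lower in macula densa cells by a log2 difference of -2.84 (SE 0.66, edgeR adjusted p 0.0108, or 0.0527 without macula densa replicate 2 on LS+ACEi). Neither diet alone passed, at -2.53 (edgeR adjusted p 0.108) and -3.14 (edgeR adjusted p 0.0728). They passed in 3 and 4 of 19 alternatives. Without control-cell replicate 4 on control diet both passed, at -2.90 (edgeR adjusted p 0.00884) and -3.14 (edgeR adjusted p 0.0104). Unlike Ccn1, Ccn2 was not higher on LS+ACEi: its diet difference was -1.35 (SE 1.02) in macula densa cells and -0.74 (SE 0.64) in control cells, with adjusted p-values of 0.650 and 0.965 in edgeR. The former turned to 0.33 when macula densa replicate 1 of the control diet was omitted. Ccn2 overlaps the antisense gene Gm15270, which held 0 to 15 counts per library, and whether reads were counted by strand is not given in the sources used here.

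Amotl2, an angiomotin relative that holds YAP at cell junctions, separated the populations most evenly. On chromosome 9 from 102716672 to 102733418, it measured 22.5 and 19.1 CPM in macula densa cells on control diet and 19.3 and 20.01 CPM on LS+ACEi. Control cells measured 133, 103, 118 and 90.8 CPM on control diet and 116, 107, 81.5 and 84.4 CPM on LS+ACEi. Every control-cell library lay above every macula densa library. The log2 difference was -2.42 on control diet (SE 0.25, edgeR adjusted p 0.000398) and -2.30 on LS+ACEi (SE 0.25, edgeR adjusted p 0.000468). Averaged over both diets it was -2.36, a 5.14-fold lower level in macula densa cells (SE 0.18, edgeR adjusted p 9.62e-06), and Amotl2 passed in all 3 cell comparisons under each of the alternatives run.

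Lats2, on chromosome 14 from 57689662 to 57758388, measured 13.1 and 9.86 CPM in macula densa cells on control diet and 10.9 and 9.19 CPM on LS+ACEi. Control cells measured 65.4, 63.5, 47.4 and 23.3 CPM on control diet and 28.4, 64.6, 23.3 and 49.3 CPM on LS+ACEi. The populations did not overlap on either diet. Lats2 was lower in macula densa cells by -2.12 on control diet (SE 0.49, edgeR adjusted p 0.0251) and by -2.04 on LS+ACEi (SE 0.50, edgeR adjusted p 0.0315). These calls were lost in 7 and 8 of 20 alternatives, with adjusted p-values of 0.222 and 0.184 when macula densa replicate 2 of the diet was omitted, and that of the mean over both diets (-2.08, SE 0.35, edgeR adjusted p 0.00195) in none (0 of 19). Lats2 shares its strand with the overlapping protein-coding gene Gm49361, whose counts reached 34.1 in 1 macula densa library, and the sum of both gave -1.68 on LS+ACEi (edgeR adjusted p 0.0577).

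Ankrd1, on chromosome 19 from 36111961 to 36120099, was close to the limit of detection in macula densa cells. It had 9 and 3 counts there on control diet and 3 and 0 counts on LS+ACEi, or 0.923, 0.244, 0.575 and 0 CPM. Control cells measured 4.70, 3.85, 5.43 and 4.13 CPM on control diet and 10.8, 5.39, 1.68 and 3.66 CPM on LS+ACEi, and none of their libraries fell into the macula densa range. On control diet Ankrd1 was the lower in macula densa cells, by a log2 difference of -2.97 (SE 0.81, edgeR adjusted p 0.0487), a call lost in 10 of 19 alternatives, most clearly without macula densa replicate 2 of that diet (edgeR adjusted p 0.339). On LS+ACEi control cells held 206 counts against 3, a ratio of 24.5 relative to library size with an exact 95% counting interval of 8.27 to 119.9 (edgeR adjusted p 0.0270, or 0.186 without macula densa replicate 2 of that diet). Of the 206 counts 140 came from control-cell replicate 1, and all 3 macula densa counts came from replicate 1. The interval covers counting error alone and not the spread between libraries. The mean over both diets passed (edgeR adjusted p 0.00275), also in each of 18 alternatives. Ankrd1 passed the filter on low counts only through control cells, where it is high, so these calls are no support for a difference beyond the counts themselves.

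Ajuba, on chromosome 14 from 54567472 to 54577558, was 2.36 and 2.69 CPM in macula densa cells on control diet and 4.598 and 0.164 CPM on LS+ACEi, the last value being a single count. Control cells ranged from 8.86 to 11.7 CPM on control diet and from 3.15 to 11.4 CPM on LS+ACEi, where 1 macula densa library lay above the lowest control-cell library. The log2 difference averaged over both diets was -1.84 (SE 0.51, edgeR adjusted p 0.0240), lost in 3 of 18 alternatives, among them the omission of either macula densa library on control diet (edgeR adjusted p 0.0813 and 0.0828). On each diet alone the differences of -2.003 and -1.67 did not pass, with edgeR adjusted p-values of 0.106 and 0.183. The former passed in 5 of 19 alternatives (edgeR adjusted p 0.0149 with only the groups compared) and the latter in 1, without macula densa replicate 1 on LS+ACEi (-5.43, edgeR adjusted p 0.0198).

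The coactivators showed smaller differences. Yap1, on chromosome 9 from 7931999 to 8004596, measured 18.8 and 28.5 CPM in macula densa cells on control diet, and 29.9 and 31.0 CPM on LS+ACEi. In control cells it ranged from 16.5 to 23.0 CPM on control diet and from 18.3 to 20.1 CPM on LS+ACEi, so the populations overlapped only on control diet. Averaged over both diets Yap1 was higher in macula densa cells by 0.46 on the log2 scale (SE 0.15, edgeR adjusted p 0.0439), and the call was lost in 12 of 18 alternatives, with an adjusted p of up to 0.275. On control diet alone the difference was 0.26 (SE 0.21) and turned to -0.022 without macula densa replicate 2. On LS+ACEi alone it was 0.67 (SE 0.21, edgeR adjusted p 0.0758), above 0 in all 19 alternatives and passing in 2 of them.

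Wwtr1, on chromosome 3 from 57455649 to 57575910, measured 12.5 to 17.2 CPM in the 4 macula densa libraries and 11.2 to 30.5 CPM in the 8 control-cell libraries. The populations overlapped on control diet and did not overlap on LS+ACEi. Neither diet alone passed, at -0.59 on control diet (edgeR adjusted p 0.319) and -0.55 on LS+ACEi (edgeR adjusted p 0.337). The log2 difference averaged over both diets was -0.57 (95% interval -1.09 to -0.04, edgeR adjusted p 0.115). Without control-cell replicate 4 on control diet, which at 11.2 CPM was the lowest of all 12 libraries, it was -0.68 (edgeR adjusted p 0.0103). The difference on control diet alone was then -0.81 (edgeR adjusted p 0.0394). The mean over both diets passed in 2 of 18 alternatives. They were the omission of that library and the block by description number (-0.76, edgeR adjusted p 0.00611). The 8 libraries of that block do not include control-cell replicate 4 on control diet either, so the 2 alternatives share its absence.

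Tead1, the DNA-binding partner, lies on chromosome 7 from 112679318 to 112906807. It measured 12.002 to 20.4 CPM in macula densa cells and 23.6 to 39.5 CPM in control cells, with no overlap on either diet. The log2 difference was -1.25 on LS+ACEi (SE 0.26, edgeR adjusted p 0.0169; 0.0711 or 0.126 without either macula densa library of that diet) and -0.77 on control diet (SE 0.25, edgeR adjusted p 0.0860, passing in 2 of 19 alternatives). The mean over both diets was -1.01, or 2.01-fold lower in macula densa cells (SE 0.18, edgeR adjusted p 0.00295). The long noncoding gene 2310014F06Rik, which overlaps Tead1 on the other strand, held 0 to 9 counts per library.

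**Figure D2:**
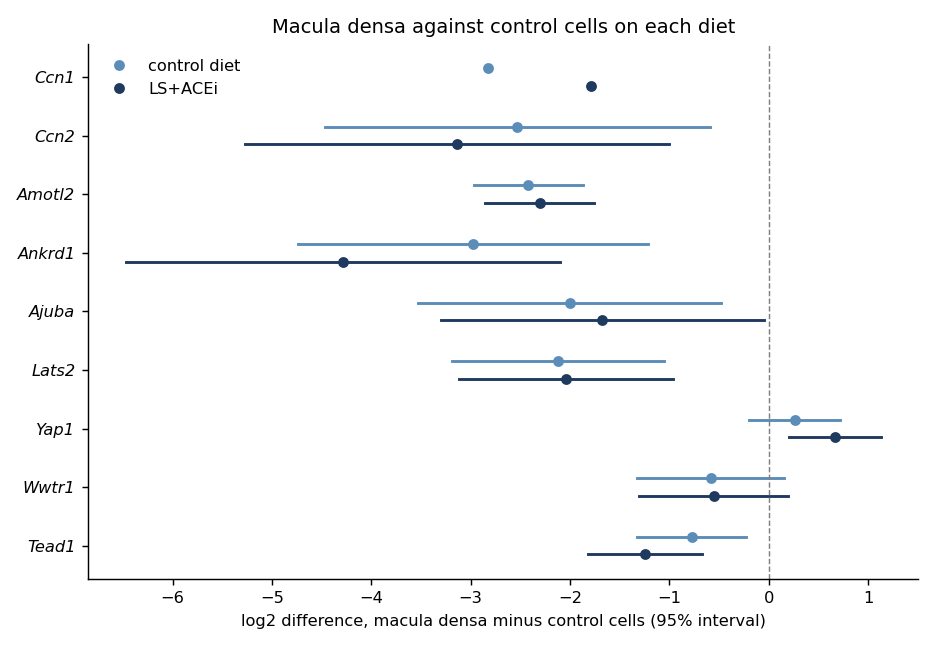
Log2 difference between macula densa and control cells for the 9 genes on each diet, with 95% intervals of the edgeR fit, which are left out for Ccn1 because it was chosen by these counts. Yap1 lies at 0.26 and 0.67, to the right of 0, and the other 8 genes lie to the left; the Ankrd1 value on LS+ACEi rests on 3 macula densa counts.

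Of the 8 genes besides Ccn1, control diet had 3 with a lower level in macula densa cells (Amotl2, Lats2, Ankrd1), where 3.92% of all genes were called lower. On LS+ACEi 4 were lower (the same 3 and Tead1), against 4.13% of all genes, and averaged over both diets 6 were lower and 1 higher, against 13.9% and 7.48%. Ankrd1 is counted there although it reached the filter's minimum of 1.09 CPM only in control cells. With scaling by library totals alone the balance over all genes turned, from 1061 higher and 1966 lower to 1827 higher and 1450 lower (382 and 556 to 542 and 328 on control diet, 446 and 585 to 736 and 392 on LS+ACEi), while the 8 genes again gave 6 lower and 1 higher. The genes had been picked with such results known, and the count is a description of them. The median of the 8 log2 differences was -2.06 on control diet and -1.86 on LS+ACEi, against -0.05 and -0.06 for all genes tested. The libraries did not overlap for 5 of the 8 on control diet, all lower, where this held for 16.7% of all genes, and for 6 lower and 1 higher on LS+ACEi, against 19.5% and 15.3%. Scaling by library totals alone, in place of trimmed means, moved the median of all genes from -0.05 to 0.12 on control diet and from -0.06 to 0.16 on LS+ACEi. It left Amotl2 as the 1 gene called lower on control diet. These totals include Gm42418, whose share differed between the populations.

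Per kilobase of exon, which allows levels of different genes to be compared, Amotl2 and Ccn2 led the set in control cells on control diet, at 17.7 and 15.4 CPM per kilobase. Lats2 followed at 7.16, Wwtr1 at 4.67 and Ccn1 at 3.83 CPM per kilobase, with Ajuba, Yap1, Tead1 and Ankrd1 between 2.79 and 1.57. In macula densa cells on control diet Amotl2 had a mean of 3.30, Wwtr1 of 3.12 and Yap1 of 2.55 CPM per kilobase. The mean of 2.69 for Ccn2 came from libraries at 4.59 and 0.797 CPM per kilobase, so its place in the order rests on 1 library. Ccn1 was then the second lowest of the 9 at 0.548 CPM per kilobase, and on LS+ACEi the fourth highest at 2.40.

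In bulk libraries fewer cells of a type and less RNA per cell cannot be told apart, and the podocyte and endothelial transcripts of the control cells moved with several of these genes. Averaged over both diets, all 7 endothelium markers and 6 of 7 podocyte markers passed as lower in macula densa cells, against 13.9% of all genes. On control diet alone 0 of 7 passed in either list, and on LS+ACEi alone 3 of 7 in each. Over both diets 6 of 6 principal-cell markers, 6 of 7 smooth muscle, renin and mesangial markers and 3 of 5 intercalated-cell markers also passed as lower. For fibroblasts it was 2 of 4 tested, leukocytes 2 of 3, proximal tubule 1 of 6 and distal convoluted tubule 0 of 4. The summed endothelium markers were 164 and 23.8 CPM in macula densa cells on control diet and 16.3 and 13.3 CPM on LS+ACEi, where Plvap was at 0. In control cells they were 1461, 1190, 798 and 42.5 CPM on control diet and 325, 844, 245 and 1201 CPM on LS+ACEi. Podocyte sums were 153 and 21.1 CPM, then 35.4 and 19.2 CPM, in macula densa cells, and 134.9 to 1095 CPM in control cells on LS+ACEi.

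In control-cell replicate 4 on control diet, whose endothelium sum of 42.5 CPM lay within the macula densa range, Amotl2 was 90.8 CPM, Ankrd1 4.13, Ajuba 11.7, Tead1 27.3 and Ccn1 7.85. All 5 values lay within the range of the other control-cell libraries except that of Ajuba, which was just above it. That library had the highest sums of the 8 for markers of principal cells (706 CPM), distal convoluted tubule (388), intercalated cells (313) and thick ascending limb (1511). In the same library Ccn2 was 5.58 CPM, Wwtr1 11.2 and Lats2 23.3, the lowest or nearly the lowest of the 8 control-cell libraries. Across those 8 libraries the Pearson r of log2 CPM with the summed endothelium markers was 0.98 for Wwtr1, 0.87 for Lats2 and 0.68 for Ccn2, against 0.42 for Amotl2, 0.10 for Ankrd1 and -0.03 for Ccn1. With the summed principal-cell markers it was 0.67 for Ajuba. Over all marker lists the highest r was with leukocytes for Lats2 (0.94), macula densa for Tead1 (0.62) and proximal tubule for Yap1 (0.67). It was with fibroblasts for Ankrd1 (0.66), Amotl2 (0.59) and Ccn1 (0.42), and with endothelium for Wwtr1 and Ccn2. These coefficients are a description, since each pair of values comes from the same library and the diets are pooled. The part of other cell types in the difference of any gene of the set was not tested, and replicate 4 is a single library.

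**Figure D3:**
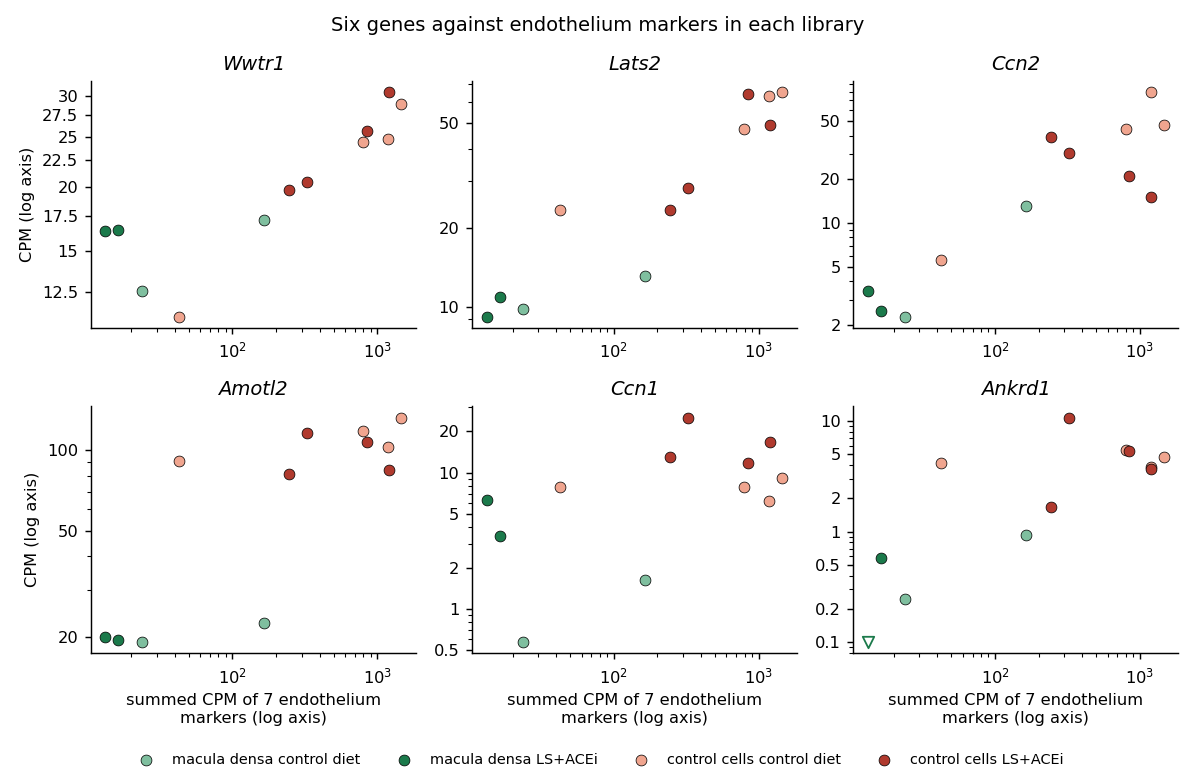
CPM of 6 genes against the summed CPM of 7 endothelium markers in each library (all axes log), coloured by group; the open triangle marks 0 counts of Ankrd1. The control-cell library at 42.5 CPM of markers has 90.8 CPM of Amotl2 and 11.2 CPM of Wwtr1.

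LS+ACEi was compared with control diet within each population to ask which of these genes responded to the stimulus for renin release. None of the 8 genes besides Ccn1 passed in macula densa cells (0 of 8 in edgeR, 0 with an unadjusted p under 0.05, 0 in DESeq2), and no gene of all 14180 did in edgeR (0%), while DESeq2 called 93 and a fit of only the groups compared 105. In control cells again none of the 8 passed (0 of 8 in edgeR, 0 unadjusted, 0 in DESeq2), against 0.00705% of all genes, which is Ren1 alone, and 74 genes in DESeq2. An unadjusted p under 0.05 was reached by 11.2% of all genes in macula densa cells and 6.45% in control cells. In simulated counts the edgeR fit recovered 0% of 2-fold and 20% of 4-fold diet changes in macula densa cells. In control cells it recovered 0% and 55%. The absence of a call is therefore no sign that the diet left a gene unchanged. Amotl2 had the narrowest interval of the targets, with a diet difference of -0.08 (95% interval -0.65 to 0.49) in macula densa cells and -0.19 (95% interval -0.59 to 0.20) in control cells. Ankrd1 had the widest, with -1.03 (95% interval -3.74 to 1.68) in macula densa cells. Yap1 was higher on LS+ACEi in both macula densa libraries than in either on control diet, which held for 18.8% of all genes. Its log2 difference was 0.36 (SE 0.25, edgeR adjusted p 0.610), or 0.045 without macula densa replicate 1 on control diet. A test of whether the diet effect itself differed between populations passed for none of the 8 genes (0 of 8 in edgeR, 0 unadjusted, 0 in DESeq2), against 0% of all genes adjusted, 7.03% unadjusted and 13 genes in DESeq2.

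**Figure D4:**
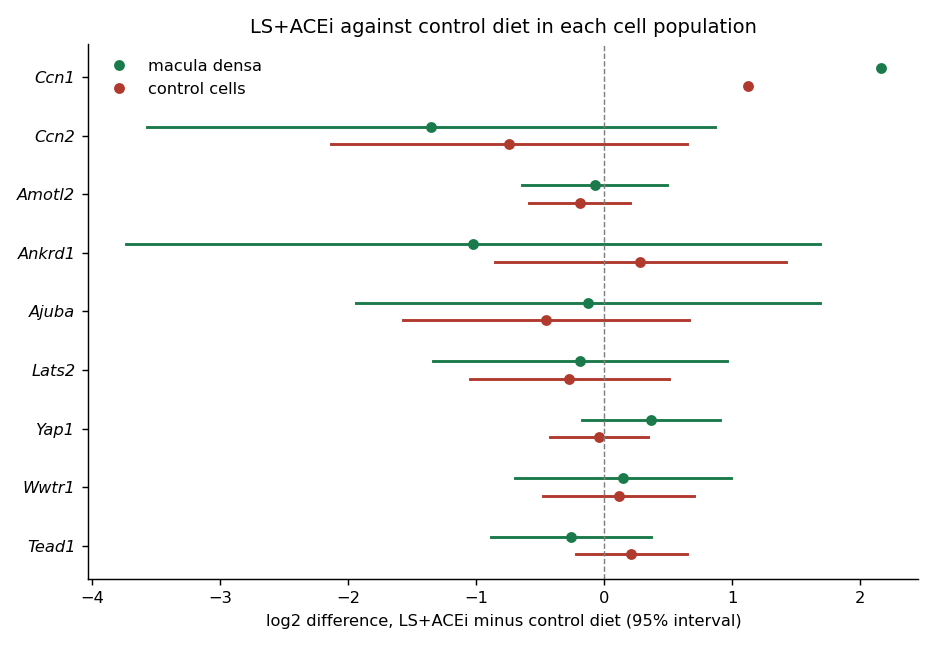
Log2 difference between LS+ACEi and control diet for the 9 genes in each population, with 95% intervals of the edgeR fit, left out for Ccn1. Ccn1 lies at 2.16 and 1.12, and the intervals of the other 8 genes all include 0.

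The rest of the pathway was read from lists of 55 genes, of which 53 were in the table and 51 were tested. On control diet 2 were called higher in macula densa cells (Wwc2, and Ccn3, which passed the filter only through that group) and 5 lower (F3, Nuak2, Ptpn14, Rbms3, Sav1), against 2.69% and 3.92% of all genes. On LS+ACEi 1 was higher (Wwc2) and 4 lower (Asap1, Nt5e, Ptpn14, Rbms3), against 3.15% and 4.13%. Averaged over both diets 4 were higher and 23 lower, against 7.48% and 13.9% of all genes. With scaling by library totals alone they were 6 higher and 16 lower, with 3 and 3 on control diet and 2 and 3 on LS+ACEi. Of the 23 called lower, 5 (Tead4, Igfbp3, Itgb3, Itgam, Itgb2) reached the filter's minimum of 1.09 CPM in at least 2 libraries of control cells only, and Ccn3 in macula densa cells only, so the call of these 6 carries no weight. The 51 log2 differences had a median of -0.75, against -0.06 for all genes tested. Within each population the diet difference passed for none of the 51 (0 in edgeR), while 1 in macula densa and 0 in control cells passed in DESeq2. Of these genes 8 in macula densa and 2 in control cells had an unadjusted p under 0.05, against 11.2% and 6.45% of all genes.

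**Figure D5:**
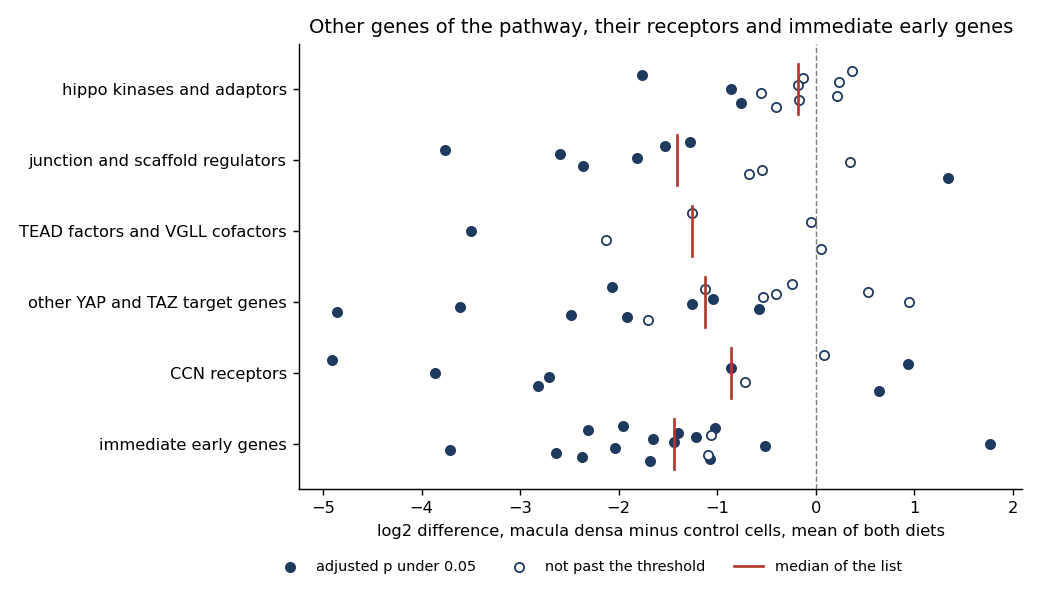
Log2 difference between macula densa and control cells, averaged over both diets, for the tested genes of 6 lists; filled points passed an adjusted p of 0.05 and red lines are list medians. The Hippo kinases and adaptors centre at -0.18, and the other lists between -0.85 and -1.44.

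The Hippo kinases and adaptors, which switch the coactivators off, had the list median nearest to 0. Of 11 tested, 3 were lower in macula densa cells averaged over both diets and 0 higher, against 13.9% and 7.48% of all genes, with a median of -0.18. The scaffold Sav1, which joins the kinases MST and LATS, was lower by -0.86 (edgeR adjusted p 0.0132), and the upstream kinases Map4k4 and Taok2 by -1.76 and -0.75. Lats1, the sister kinase of Lats2, was at 20.7 to 30.02 CPM in macula densa and 14.6 to 25.8 CPM in control cells, a difference of 0.37 that did not pass (edgeR adjusted p 0.154).

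Among 10 junction and scaffold regulators 6 were lower and 1 higher averaged over both diets, against 13.9% and 7.48% of all genes. Ptpn14, a phosphatase that binds YAP, was lower on each diet, by -2.30 and -2.43 (edgeR adjusted p 0.00928 and 0.00718). The angiomotins Amot and Amotl1 and the cadherins Fat4 and Dchs1 were lower by -1.28, -1.53, -2.59 and -3.76, and Frmd6 by -1.81. In control-cell replicate 4 on control diet, the library poor in endothelium markers, Amotl1 was 13.4, Fat4 3.51 and Dchs1 0.517 CPM, all in or below the macula densa range. These are examples, and the values of Amot, Frmd6 and Ptpn14 in that library are not given here. Wwc2, a relative of the LATS activator KIBRA, went the other way. It measured 105 and 98.6 CPM in macula densa cells on control diet and 212 and 170 CPM on LS+ACEi, against 47.7 to 61.4 CPM in the 8 control-cell libraries. Wwc2 was higher in macula densa cells by 0.83 on control diet and 1.86 on LS+ACEi (edgeR adjusted p 0.0185 and 0.000172), and its own diet difference in macula densa cells did not pass (0.90, edgeR adjusted p 0.218).

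Of the 5 TEAD factors and VGLL cofactors tested beside Tead1, only Tead4 passed, lower averaged over both diets (edgeR adjusted p 0.00868). Of all genes 13.9% were called lower and 7.48% higher there. Tead4 reached the filter's minimum only in control cells. Its 2 counts in macula densa cells on LS+ACEi stood against 91 in control cells, a ratio of 16.2 with an exact 95% counting interval of 4.37 to 136.2. Tead2 and Vgll3 were at most 1.72 CPM in macula densa cells, Tead3 at 2.36 to 5.09 and Vgll4 at 6.40 to 13.4 CPM, and none of these passed.

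Among 15 other YAP and TAZ target genes tested, 8 were lower in macula densa cells averaged over both diets and 0 higher, against 13.9% and 7.48% of all genes, with a median of -1.12. Rbms3 was lower on each diet, by -1.67 and -2.16 (edgeR adjusted p 0.0247 and 0.0126). Nuak2, a kinase that acts on the actin cytoskeleton, and F3, which encodes tissue factor, were lower on control diet by -2.71 and -1.55. Nt5e, the ecto-nucleotidase that forms adenosine, had 0 counts in both macula densa libraries on LS+ACEi and 93 in control cells, a ratio of control to macula densa cells whose exact 95% counting interval begins at 8.83. Asap1, Igfbp3, Gadd45b and Myof were also lower averaged over both diets, Myof by -0.57 and Asap1 by -2.06.

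Of the other CCN genes, only Ccn3 was left by the filter on low counts. It had 57 counts in macula densa cells on control diet, 2.565 and 2.607 CPM, against 1 count in control cells. On LS+ACEi it had 3 counts in macula densa cells, 0 and 0.492 CPM, and 2 counts in control cells. Ccn3 reached the filter through the macula densa libraries of control diet alone, where it is high, so its values are a description and its call supports nothing. Ccn4 and Ccn5 were at most 1.15 CPM in every library. Of 9 receptors for CCN proteins 2 were higher and 5 lower averaged over both diets, against 7.48% and 13.9% of all genes. The integrin subunit Itgav and the proteoglycan Sdc4 were higher by 0.94 and 0.65, and Itgb1, Itgb3, Itgb2, Itgam and Lrp1 were lower. In control-cell replicate 4 on control diet Itgb2, Itgam and Lrp1 were at 0.413, 0 and 3.62 CPM, given as examples without the values of Itgb1 and Itgb3. Itgav measured 90.9 to 135 CPM in macula densa and 40.2 to 81.7 CPM in control cells.

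Ccn1 is also an immediate early gene, induced within the first wave after a stimulus or after tissue handling. Of 17 such genes tested, 14 were lower in macula densa cells averaged over both diets and 1, Ier3, was higher, against 13.9% and 7.48% of all genes, with a median of -1.44. The LS+ACEi difference was above 0 for 15 of the 17 in macula densa cells (median 0.94) and for 14 in control cells (median 0.70), against 6879 and 6488 of all 14180 genes. None passed (0 in edgeR), with an unadjusted p under 0.05 for 4 and 8 of the 17, against 11.2% and 6.45% of all genes. Atf3, for example, measured 1.74 and 2.53 CPM in macula densa cells on control diet, 5.56 and 10.2 CPM on LS+ACEi, 6.67 to 12.3 CPM in control cells on control diet and 14.4 to 33.6 CPM on LS+ACEi. The part of cell isolation in these levels was not tested.

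By Pearson r of log2 CPM over the 12 libraries, among 6680 genes with a mean of at least 5 CPM, the 5 genes most like Ccn1 were Ctps, Ppp1r15a, Hbegf, Pfn1 and Arc, at 0.97, 0.95, 0.95, 0.94 and 0.92. The libraries share their cell population and diet, so the coefficients describe the same 4 groups. Hbegf, which encodes a growth factor of the EGF family, followed the same order of groups, with 2.07 ± 0.849 (SD, n = 2), 7.06 ± 1.85 (SD, n = 2), 11.9 ± 5.82 (SD, n = 4) and 19.9 ± 4.92 CPM (SD, n = 4). The 8 pathway partners were left out of that search, and their own coefficients with Ccn1 over the 12 libraries ran from -0.49 for Yap1 to 0.77 for Amotl2. Over the 8 control-cell libraries alone, where the contrast of populations is absent, Amotl2 and Ccn1 gave -0.13 and Ccn2 and Ccn1 -0.18, while Ankrd1 and Ajuba gave 0.81.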

How the data were processed

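Kidney cortex cells of mice were sorted by fluorescence and their total RNA sequenced as 12 libraries. The labels name the Takara SMARTer Stranded Total-RNA Pico v2 kit, with libraries prepared together. STAR 2.61, Partek and the build mm10 appear in the submitters' processing notes. The counting tool, its use of strand and the annotation are not given in the sources used here. The values the authors deposited are estimated counts per gene for every library, a table whose making involved STAR and Partek per the submitters' processing notes; 14.8% of them were not whole (tolerance 1e-06), and all were rounded here. No column lacked a sample (0 columns). Of 23378 rows, 23351 equalled GENCODE M21 in symbol, start and end minus 1, and positions are those of that annotation.

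Genes were filtered with filterByExpr of edgeR 4.0.16 in R 4.3.3 (count minimum 10, total minimum 15) and scaled with trimmed means of M values. A single quasi-likelihood fit to the 12 libraries had 1 term for each group, and Benjamini-Hochberg adjustment ran over all genes in each of 6 comparisons (threshold 0.05). Log2 CPM for correlations used a prior count of 2, and marker sums entered as log2 of the sum plus 1. The script was tested on simulated data. Counting intervals (95%) and floors (3 counts) cover counting error alone, because PCR copies cannot be told from separate molecules. Replicate libraries differed by more than sampling noise, at a chi-square per degree of freedom of 9.37 to 74.7.

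The members, gene lists, marker lists and tests were chosen with earlier results of these data known. Genes named are the members, list genes past the threshold in any comparison or in lists of at most 5 tested genes, the 5 genes most like Ccn1, and markers; Lats1, Atf3 and single libraries were picked as examples after their values were seen. Alternatives were DESeq2 1.42.0 size factors and its Wald test, library totals alone, no filter, only the groups compared, a block for either replicate number, and omission of each library in turn. The sum of Lats2 and Gm49361 was added after the data were seen. No protein sequence was used here.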

Additional observations from a re-analysis of the deposited data

How the results depend on the processing

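The pairing of libraries by number was checked first. Deviations from the group means were correlated between libraries of different groups. Those with the same description number gave -0.04 to 0.23 over 4 pairs (1 over 0.1). Those with the same title number gave -0.38 to 0.28 over 14 pairs (2 over 0.1). Where a group has 2 libraries their deviations mirror each other, so these correlations cannot show whether the numbers pair samples. The main fit left the numbers out, and a block for each was run as an alternative. With the replicate block by title number the genes called were 378 against 938 on control diet (pathway lists 2 against 7), 396 against 1031 on LS+ACEi, 1908 against 3027 for the mean of both diets (lists 13 against 27) and 0 against 1 for diet in control cells. With the replicate block by description number, which covers 8 libraries, they were 2217 on control diet and 2192 on LS+ACEi, with 23 list genes in each. This fit also drops the control-cell libraries whose number is not shared, among them replicate 4 on control diet. Omitting that library alone gave 2490 genes and 24 list genes on control diet, so block and omission cannot be told apart. In that block Wwtr1 passed for the mean of both diets (-0.76, edgeR adjusted p 0.00611) and on each diet (0.0464 and 0.0479), Ccn2 on each diet (0.000582 and 0.00450), and Tead1 and Ajuba on control diet (0.0253 and 0.0314), while Yap1 no longer passed for the mean (0.0953). DESeq2's Wald test called 2000 and 1922 genes for the populations on control diet and LS+ACEi (lists 17, and 14 against 5), 93 for diet in macula densa cells (lists 1), 74 in control cells and 13 for the difference of diet effects (lists 1). With only the groups compared the counts were 468 on control diet (lists 4), 105 for diet in macula densa cells (lists 1) and 0 in control cells, with 9 list genes on LS+ACEi; without a filter 8 list genes were called there. Differences of diet effects near 0 changed sign: Wwtr1 was -0.086 without a filter and -0.011 and -0.028 with the blocks by title and description number, Lats2 -0.028 without a filter and -0.22 with the block by description number, Amotl2 -0.0041 without a filter, and Ccn2 and Ajuba 0.76 and -0.049 with that block. Lats2 summed with Gm49361, an alternative added after the data were seen, had a diet difference of 0.16 in macula densa cells. The cause of these shifts was not tested.

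Leaving out each library in turn gave 122 (macula densa replicate 2 on control diet omitted) to 2490 (control-cell replicate 4 on control diet omitted) genes called on control diet and 0 to 24 list genes, 194 to 1894 and 1 to 13 on LS+ACEi, 1680 to 3968 and 13 to 33 for the mean of both diets, 0 to 1 genes for diet in macula densa cells and 1 to 5 in control cells. Such omissions also turned the sign of differences that had not passed. For Yap1 on control diet the range was -0.022 to 0.55. For diet in macula densa cells it was -2.22 to 0.33 for Ccn2, -5.42 to 0.088 for Ankrd1, -0.15 to 0.34 for Wwtr1, -0.64 to 0.087 for Tead1 and -3.90 to 0.80 for Ajuba. For diet in control cells it was -0.35 to 0.56 for Ankrd1, -0.10 to 0.038 for Yap1 and -0.11 to 0.28 for Wwtr1. For the difference of diet effects it was -0.28 to 0.26 for Wwtr1, -0.21 to 0.37 for Lats2, -0.10 to 0.21 for Amotl2, -3.46 to 1.25 for Ajuba and -1.51 to 1.04 for Ccn2. With 2 macula densa libraries in each group, omission leaves 1, which the fit assumes to vary like the others. Ccn1, Ankrd1 and Ajuba had at most 38 counts in each macula densa library.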
